A study of Rattus norvegicus with 16 samples.

Results

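Cholesterol export in the rat proximal femur was followed through 7 genes: the exporters Abca1 and Abcg1, the carrier protein gene Apoe, the liver X receptor genes Nr1h3 and Nr1h2, the lipoprotein receptor gene Scarb1 and the sterol-sensing transcription factor gene Srebf2. All probe sets whose only gene symbol on the array platform was one of these names were taken, which gave 16 probe sets for 7 of the 14218 genes named on the array. Abca1 had 4 probe sets, Abcg1 had 3, Apoe, Nr1h2, Scarb1 and Srebf2 had 2 each, and Nr1h3 had 1. The arrays hold total RNA from the femoral end that bears the hip joint, taken from rats 4 weeks old, whose sex the labels do not give and for which no treatment is named. F344 stands for Fischer 344 rats, LEW for Lewis, COP for Copenhagen 2331 and DA for Dark Agouti, all inbred, and each strain has 4 arrays. F344 and LEW founded the F2 cross behind the study, which asked for genes that differ between strains at a chromosome 4 locus. None of the 7 genes lies on that chromosome: RefSeq places Apoe and Nr1h2 on chromosome 1, Nr1h3 on 3, Abca1 on 5, Srebf2 on 7, Scarb1 on 12 and Abcg1 on 20. Abca1 was chosen by its measured differences between F344 and LEW and between COP and DA, so its values are given as a description without a test, while the other 6 genes were tested.

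Cells cannot break down the sterol ring, and surplus cholesterol leaves them mainly through 2 transporters of the ATP-binding cassette family. Abca1 loads lipid-poor apolipoproteins, Apoe among them, and Abcg1 passes cholesterol on to formed high-density lipoprotein, from which Scarb1 takes up cholesteryl esters. The liver X receptors, encoded by Nr1h3 and Nr1h2, bind oxysterols and switch on Abca1, Abcg1 and Apoe when cholesterol is high, while Srebf2 encodes the factor that switches on cholesterol synthesis when it is low. In bone marrow these genes are best known from macrophages, and cholesterol handling also affects osteoclasts and blood cell precursors.

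Short stretches of RefSeq sequence (GRCr8, reference strain BN and not the strains measured) are given as background to these controls. A window from 250 bases before to 50 bases after the gene start was held for 5 of the 7 members. The windows were searched on both strands for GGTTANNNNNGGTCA, the form of liver X receptor element known from human ABCA1, and for ATCACCCC, a form of a sterol regulatory element. The first was in 18 of 33469 windows of the same length, or 0.0538%, and among these 5 members only in that of Abca1. The second was in 0.687% of windows and among these 5 members only in that of Srebf2. The E-box CACGTG, in 6.42% of windows, was also in that of Abca1. A match is a description of letters and not a shown binding site. The lines give 30 bases around each match in the direction of the gene, with the match in capitals. The last line is a microRNA that RefSeq places inside Srebf2, known in mouse and human to repress Abca1, with its seed (bases 2 to 8) in capitals. Its level was not analysed here.
Abca1, receptor element, chr5:72596522-72596551, minus strand: acagcgttTGACCGGTAGTAACCccggcgc
Abca1, E-box, chr5:72596605-72596634, minus strand: gggccatagctcCACGTGctttctgctgag
Srebf2, sterol element, chr7:115543139-115543168, plus strand: gatgacgcgccATCACCCCatgagccgctt
rno-miR-33-5p, chr7:115593957-115593977, plus strand: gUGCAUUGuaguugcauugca

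The values are expression signals on a linear scale, and each array's trimmed mean was close to 1000.3, with array medians between 303 and 325. A probe set entered the fit if its mean log2 signal over all arrays was at or above the 40th percentile, a signal of 174. Of the 16 probe sets 13 passed, all 4 of Abca1 and 9 of the other genes. The second probe sets of Apoe (signals of 2.78 to 25.0 over the arrays), Nr1h2 (3.23 to 72.5) and Srebf2 (5.16 to 94.8) did not pass, and the passing probe set nearest to the limit was 1387054_at of Abcg1, at 173.6. Differences are log2 differences, the strain named first minus the strain named second. Bone matrix genes were bright in all strains, with Col1a1 at mean signals of 61574 to 67322 and Bglap at 51487 to 55945 (n = 4 per strain). In such a tissue extract, fewer cells of a type and less RNA per cell cannot be told apart. The number of arrays limits the precision, and the labels do not say that replicates were separate animals, so p-values measure only the spread between these arrays.

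The strain pattern of Abca1 depended on the probe set, and the difference F344 minus LEW changed its sign between probe sets. Probe set 1382431_at read 574, 507, 563 and 656 on the F344 arrays and 2356, 3073, 2749.8 and 3106 on the LEW arrays. It read 3770.5, 2929, 2946 and 2981 on the COP arrays and 618, 475, 524 and 510.1 on the DA arrays. F344 and DA were low and LEW and COP were high, with no overlap between the low and the high strains. Its mean was 575 ± 61.7 in F344 and 2821 ± 349 in LEW, a log2 difference of -2.29 (SE 0.11), or 4.90-fold higher in LEW. Between COP (3157 ± 409.7) and DA (532 ± 61.0) the difference was 2.57 (SE 0.11), or 5.93-fold (SD, n = 4 each). The strains ran from COP over LEW and F344 to DA. Neighbours COP and LEW overlapped, as did F344 and DA, with differences of -0.16 for LEW minus COP and 0.11 for F344 minus DA (SE 0.11).

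Probe set 1394490_at of Abca1 divided the strains in the same way. Its signals were 599, 363, 509.9 and 379 in F344 and 758, 1158, 964 and 1269.9 in LEW. They were 1250.6, 1306, 1028 and 965 in COP and 464, 404, 568 and 229 in DA. Every LEW and COP array again lay above every F344 and DA array, but the gap was narrower, with log2 differences of -1.17 for F344 minus LEW and 1.51 for COP minus DA (SE 0.22), or 2.86-fold for the second. DA replicate 4 was the lowest array. LEW replicate 1 was the lowest LEW array, and LEW replicate 4 the highest, on all 4 Abca1 probe sets.

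The other pair of Abca1 probe sets did not show this division. Probe set 1383355_at read 1287, 1377, 1342 and 1322 in F344 and 606, 796, 731 and 1065 in LEW. In COP it read 929, 757, 834 and 892, and in DA 939, 956, 1079 and 894. F344 was the high strain and overlapped with none of the others, while LEW, COP and DA overlapped one another. Its log2 difference was 0.77 for F344 minus LEW (1.70-fold), 0.65 for F344 minus COP and 0.47 for F344 minus DA, with an SE of 0.12. COP minus DA gave -0.18, against 2.57 for the first probe set.

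The dimmest of the 4, 1384381_at, had signals of 390.1, 336, 399 and 245 in F344 and 165, 225, 244 and 301 in LEW. COP gave 206, 254, 232 and 254, and DA gave 268, 194, 264 and 250.4. F344 replicates 1, 2 and 3 were above all others, but F344 replicate 4 fell among the remaining strains, so that no strain pair was free of overlap. The log2 differences were 0.56 for F344 minus LEW and -0.04 for COP minus DA (SE 0.19). Which strains had the higher Abca1 signal thus depended on the probe set. Where on the Abca1 transcript each probe set lies was not analysed here.

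**Figure D1:**
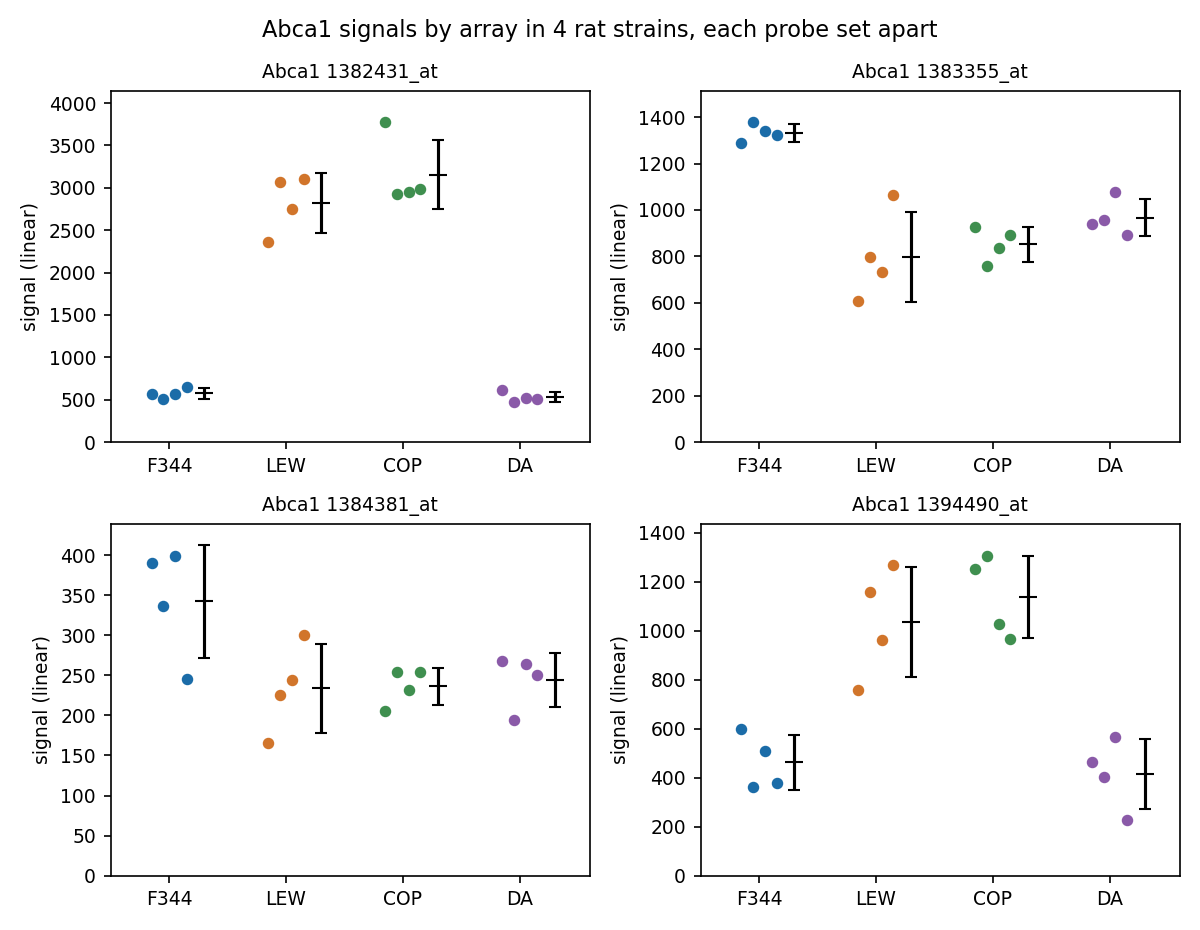
Signals (linear scale) of the 4 Abca1 probe sets on each of the 16 arrays, by strain, 1 panel per probe set; points are arrays and the bar beside them is the mean with its SD (n = 4). Probe sets 1382431_at and 1394490_at are high in LEW and COP, with means of 2821 and 3157 for the first, whereas 1383355_at is highest in F344, with a mean of 1332.

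Of the 9 tested probe sets of the other 6 genes, those of Apoe and Srebf2 differed among the 4 strains and the remaining 7 did not pass. By limma's moderated F-test 2 of 9 passed at an adjusted p under 0.05, as did 31.2% of all probe sets. Contrast by contrast, 2 of 9 passed for F344 minus LEW (13.8% of all probe sets), 1 for COP minus DA (11.9%), 2 for F344 minus COP (19.9%), 1 for F344 minus DA (16.1%) and 1 for LEW minus DA (10.4%). For LEW minus COP 0 of 9 passed in limma (13.7% of all), and 2 had an unadjusted p under 0.05. Strain pairs were free of overlap in 2 of 9 probe sets for F344 minus LEW (18.3% of all), 1 for COP minus DA (16.4%), 3 for F344 minus COP (25.1%), 1 for F344 minus DA (21.5%), 2 for LEW minus COP (17.4%) and 1 for LEW minus DA (13.4%). Counts so near the background do not set the genes apart as a group.

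Apoe, whose product carries cholesterol and other lipids, was higher in F344 than in every other strain. Its signals were 6258, 6764, 6741 and 6128 in F344 and 4968, 4933, 4150.1 and 4615 in LEW. They were 4743, 4157, 4269.7 and 4281 in COP and 4900.3, 4813, 5055 and 4644 in DA. The lowest F344 array was above the highest array of the others. The log2 difference was 0.47 for F344 minus LEW (1.39-fold, limma adjusted p = 2.20e-05), 0.57 for F344 minus COP (1.48-fold, adjusted p = 1.52e-06) and 0.41 for F344 minus DA (1.33-fold, adjusted p = 1.06e-04), with an SE of 0.064. LEW, COP and DA were not separated from each other, with COP minus DA at -0.15 (limma adjusted p = 0.128).

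Macrophage markers moved with Apoe in part. Of the 15 listed markers 13 were measured above the filter, and between F344 and LEW 8 of them rose in F344 and 0 fell (1 fell under quantile normalization), beside 6.96% higher and 7.54% lower among all genes. Their median log2 difference was 0.30 (all genes 0.012), and the complement genes C1qa and C1qb had 0.33 and 0.41. Of the 13, 11 were above 0, while Cd68 (-0.22) and Lyz2 (-0.19) were below and not called in the main fit. For F344 minus COP 4 rose and 2 fell (10.4% and 10.6% of all genes), and for F344 minus DA 3 rose and 2 fell (8.11% and 9.20%). C1qa was among the rises against both COP (0.20) and DA (0.17). C1qb was called in neither contrast (-0.02 and -0.09), so unlike Apoe it was not higher in F344 than in every other strain. Besides Lyz2, Cd68 fell against COP (-0.24) and Cd163 against DA (-0.43). The summed signal of the 13 markers ran from 68192 to 71388 on F344 arrays, from 66405 to 71609 on LEW arrays, from 74262 to 78043 on COP arrays and from 69998 to 83791 on DA arrays, and no measured marker was at 0. Lyz2 alone gave 33021 to 36188 of it on F344 arrays and 36955 to 43156 on LEW arrays. Lyz2 was lower in F344 than in COP (-0.33, limma adjusted p = 0.00224) and DA (-0.36, limma adjusted p = 0.00129). Without Lyz2, a sum added after seeing the data, the other 12 summed to 33432 to 35299.8 on F344 arrays. That was above all arrays of LEW (28452 to 31863) and COP (30486 to 32790.0), and barely above those of DA (31463 to 33412). The sum of these 12 was highest in the same strain as Apoe, but the sum of all 13 was not. A high sum in F344 was not particular to macrophage markers. The 6 measured endothelial markers summed to 12884 to 13280 on F344 arrays. That was above all LEW and COP arrays (up to 12108 and 12114) and overlapped with DA (11671 to 13271). Neutrophil and B-lymphoid sums were lowest in F344. What part any of these cell types have in the Apoe difference was not tested. The 4 measured neighbours of Apoe on chromosome 1 (Relb, Clptm1, Tomm40 and Nectin2) had 0 calls for F344 minus LEW in limma, beside 14.5% of all genes. At an unadjusted p under 0.05 they also had 0. With so few genes nothing is read from these counts.

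Srebf2, the regulator of cholesterol synthesis and uptake, was lower in F344 and DA than in LEW and COP, the same division of strains as in 2 of the Abca1 probe sets but far smaller. Signals were 926, 1035, 1031 and 889 in F344 and 1266, 1143, 1096 and 1131 in LEW. They were 1274, 1371, 1249.8 and 1322 in COP and 912, 929, 878 and 1035 in DA. Every LEW and COP array exceeded every F344 and DA array. COP was 1.39-fold above DA (log2 difference 0.48, SE 0.081, limma adjusted p = 3.46e-04) and the difference F344 minus COP was -0.43 (adjusted p = 6.19e-04). LEW was above DA by 0.30 (adjusted p = 0.0164) and F344 minus LEW was -0.26 (adjusted p = 0.0372).

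Both calls for Srebf2 that involve LEW were lost under several alternatives. With only the 2 strains compared in the fit, the limma adjusted p was 0.0669 for F344 minus LEW and 0.0603 for LEW minus DA, and with the replicate number as a block it was 0.0556 for F344 minus LEW. Single arrays also decided them. For F344 minus LEW the limma adjusted p was 0.0984 without F344 replicate 1, 0.116 without F344 replicate 4, 0.109 without LEW replicate 1 and 0.0654 without LEW replicate 2. For LEW minus DA it was 0.0538 without LEW replicate 1 and 0.0551 without DA replicate 3. The calls for COP minus DA and F344 minus COP held under all alternatives run.

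**Figure D2:**
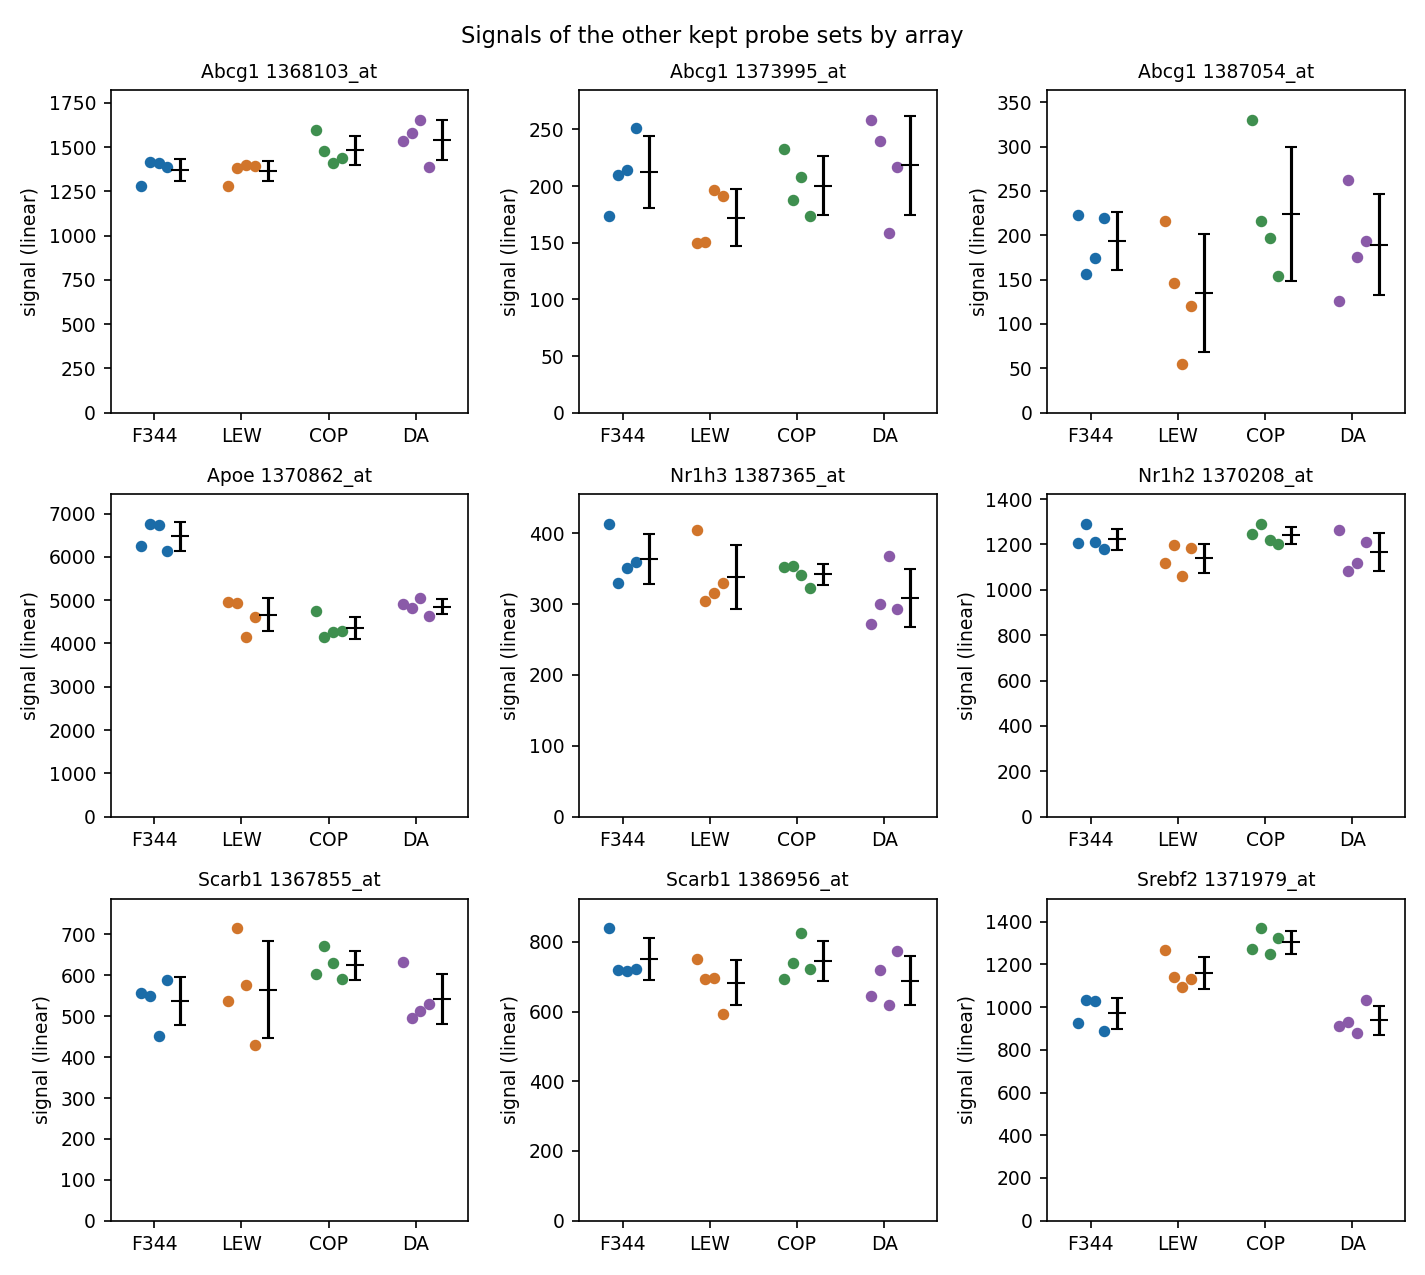
Signals (linear scale) on each of the 16 arrays, by strain, for the 9 tested probe sets of Abcg1, Apoe, Nr1h3, Nr1h2, Scarb1 and Srebf2; points are arrays and the bar beside them is the mean with its SD (n = 4). Apoe is highest in F344 (mean 6473) and Srebf2 is higher in LEW and COP (1159 and 1304) than in F344 and DA (970.1 and 939).

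The receptors that drive cholesterol export were not called in any contrast. Nr1h3, encoding the liver X receptor alpha, averaged 364 ± 35.5 (F344), 338 ± 45.3 (LEW), 342 ± 14.6 (COP) and 308 ± 41.3 (DA; SD, n = 4), and its arrays overlapped in every strain pair. Its differences lay between -0.03 and 0.24 over the 6 contrasts (SE 0.13, lowest limma adjusted p = 0.245). Nr1h2, encoding the widely expressed liver X receptor beta, averaged 1223 ± 47.5 (F344), 1139.6 ± 63.9 (LEW), 1239.5 ± 38.7 (COP) and 1168 ± 83.7 (DA; SD, n = 4). Its LEW arrays all lay below its COP arrays. Its differences lay between -0.12 and 0.10 (SE 0.073, lowest limma adjusted p = 0.318). With these standard errors, small differences in either receptor were not detectable.

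Abcg1 and Scarb1 were not called either. For Abcg1 the brightest probe set, 1368103_at, averaged 1373 ± 62.0 (F344), 1364 ± 57.1 (LEW), 1482 ± 83.0 (COP) and 1539 ± 112 (DA; SD, n = 4). Its 2 dim probe sets had means of 172 to 218 and 134 to 224, near the filter, and LEW replicate 3 dropped to 55.0 on one of them. Over all 3 probe sets the lowest limma adjusted p was 0.105. Scarb1 had means of 537 to 624 on 1367855_at and 683 to 750.0 on 1386956_at. Its differences lay between -0.22 and 0.21 (SE 0.10 to 0.13, lowest limma adjusted p = 0.276).

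**Figure D3:**
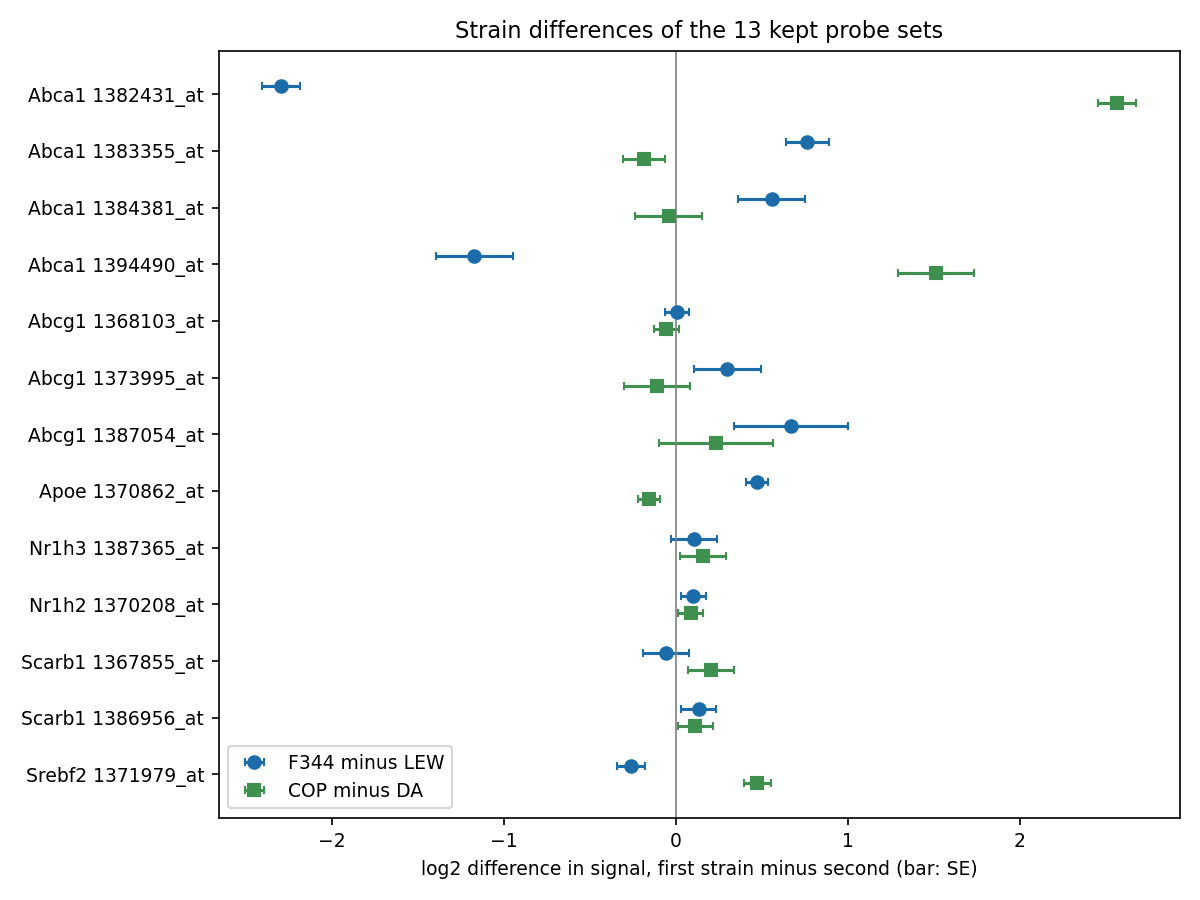
Log2 differences in signal with their SE for the 13 kept probe sets, F344 minus LEW (circles) and COP minus DA (squares), one row per probe set. The Abca1 rows spread from -2.29 to 2.57 while those of Nr1h3, Nr1h2 and Scarb1 lie close to 0.

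Genes with the strain pattern of each Abca1 probe set were ranked by the mean absolute difference of log2 signals over the 16 arrays, each centred on its own mean, so that 0 is an identical pattern. This measure is not scaled to the size of the strain differences. A probe set with small differences gets small values, so values rank genes within a probe set only. For 1382431_at the nearest gene was Vpreb3, a gene of B-cell precursors, at 0.39, followed by the kinase gene Nek1 (0.56) and the cyclophilin gene Ppih (0.60). For 1394490_at they were Mis12 (0.24), of the kinetochore, and again Nek1 (0.28) and Ppih (0.29). For 1383355_at they were the adhesion gene Cadm1 (0.10), the early response gene Ier3 (0.13) and Wdr37 (0.13), and for 1384381_at Gstt2, Them4 and Fam149a (0.14 to 0.15).

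Vpreb3 averaged 948 ± 173 (F344), 4971 ± 144 (LEW), 3413 ± 162 (COP) and 1430.2 ± 336 (DA; SD, n = 4). The 4 measured of 8 listed B-lymphoid markers, Vpreb3 included, summed to 9635 to 10148 in F344 and 17609 to 20197 in LEW, without overlap. They summed to 16545 to 19146 in COP and 11698 to 15304 in DA, also without overlap. Vpreb3 was itself picked for its likeness to 1382431_at and is no independent member of that sum. Without it, a sum added after seeing the data, the other 3 summed to 8522 to 9263 on F344 arrays, 12684 to 15031 on LEW arrays, 13364 to 15725 on COP arrays and 10380.6 to 13467 on DA arrays. F344 then lay below the other strains, and DA overlapped with both LEW and COP. The part of these cells in the Abca1 signals was not tested.

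Around Abca1 on chromosome 5, 1 of the 10 nearest measured genes was called for F344 minus LEW, beside 14.5% of all genes, and 3 of 10 for COP minus DA, beside 12.2%. Smc2, a condensin subunit, was lower in F344 than in LEW (-0.27, limma adjusted p = 0.0114). For COP minus DA, Nipsnap3b, next to Abca1, was higher in COP (0.42, limma adjusted p = 2.11e-04), while the choline transporter gene Slc44a1 on its other side (-0.70, limma adjusted p = 2.03e-07) and Fsd1l (-0.56, limma adjusted p = 4.82e-04) were lower. Slc44a1 averaged 5804 ± 275 on COP arrays against 9450.2 ± 909 on DA arrays (SD, n = 4). Zfp189, Pgap4, Rnf20, Tmem38b, Zfp462 and Rad23b did not pass in either contrast. For F344 minus LEW the 10 neighbours lay between -0.27 and 0.33, against -2.29 for 1382431_at of Abca1.

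**Figure D4:**
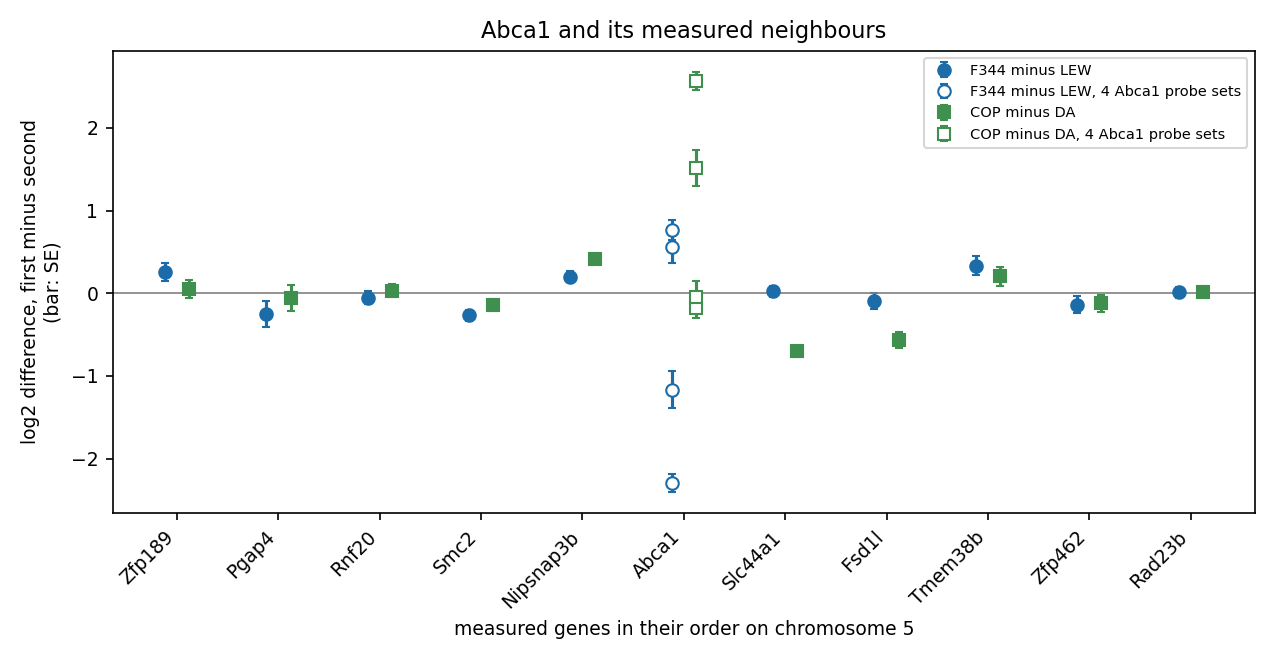
Log2 differences in signal with their SE for Abca1 (4 probe sets, open symbols) and the 5 measured genes on each side, in their order on chromosome 5; F344 minus LEW in circles and COP minus DA in squares. For F344 minus LEW the neighbours lie between -0.27 and 0.33, inside the spread of the Abca1 probe sets (-2.29 to 0.77). For COP minus DA they lie between -0.70 and 0.42. There Slc44a1 (-0.70) and Fsd1l (-0.56) lie below all 4 Abca1 probe sets (-0.18 to 2.57).

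Beyond the 7 genes, the other genes of cholesterol handling were taken from 5 lists, of whose 77 genes 52 were measured above the filter. Of these, 10 were called for F344 minus LEW, 9 higher and 1 lower, or 19.2% beside 14.5% of all genes. For COP minus DA 8 were called, 4 higher and 4 lower, or 15.4% beside 12.2%. The other contrasts had 9 calls for F344 minus COP (17.3% beside 21.0% of all genes), 15 for F344 minus DA (28.8% beside 17.3%), 4 for LEW minus COP (7.69% beside 14.1%) and 5 for LEW minus DA (9.62% beside 10.4%). These contrasts share arrays and are not independent of each other.

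Enzymes of cholesterol synthesis, targets of the factor encoded by Srebf2, included some that were higher in F344 than in LEW. Srebf2 itself was lower in F344 there, a call lost under several alternatives. Of 16 measured enzymes 4 rose in F344 and 0 fell, beside 6.96% and 7.54% of all genes (3 rose under median centring and under quantile normalization), with a median difference of 0.17 (all genes 0.012). These were the lanosterol demethylase gene Cyp51 (0.50, limma adjusted p = 0.00260), with 1949 ± 97.4 on F344 arrays against 1391 ± 239 on LEW arrays (SD, n = 4), the methyl sterol oxidase gene Msmo1 (0.48), Hsd17b7 (0.45) and the isomerase gene Idi1 (0.31). All 16 differences were above 0 (15 under median centring). For COP minus DA, where Srebf2 was higher in COP, 1 of 16 rose, Sc5d (0.51, limma adjusted p = 0.00665), with 956 ± 148 on COP arrays against 669 ± 47.5 on DA arrays (SD, n = 4), and 0 fell, beside 5.74% and 6.42% of all genes, with a median of 0.15 (all genes 0.0030). Of these differences 13 of 16 were above 0. For F344 minus COP, where Srebf2 was lower in F344 (-0.43), 0 enzymes rose and 1 fell, beside 10.4% and 10.6% of all genes. Yet 11 of 16 were above 0 there, with a median of 0.095. For F344 minus DA, where Srebf2 was not called (0.05), 5 rose and 0 fell, beside 8.11% and 9.20%, and 14 of 16 were above 0. For LEW minus DA, where Srebf2 was higher in LEW (0.30, a call lost under several alternatives), 0 enzymes rose and 0 fell, beside 10.4% of all genes called. Of these, 6 of 16 were above 0. The enzymes thus did not go one way with Srebf2 over these contrasts, and a link between them was not tested.

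**Figure D5:**
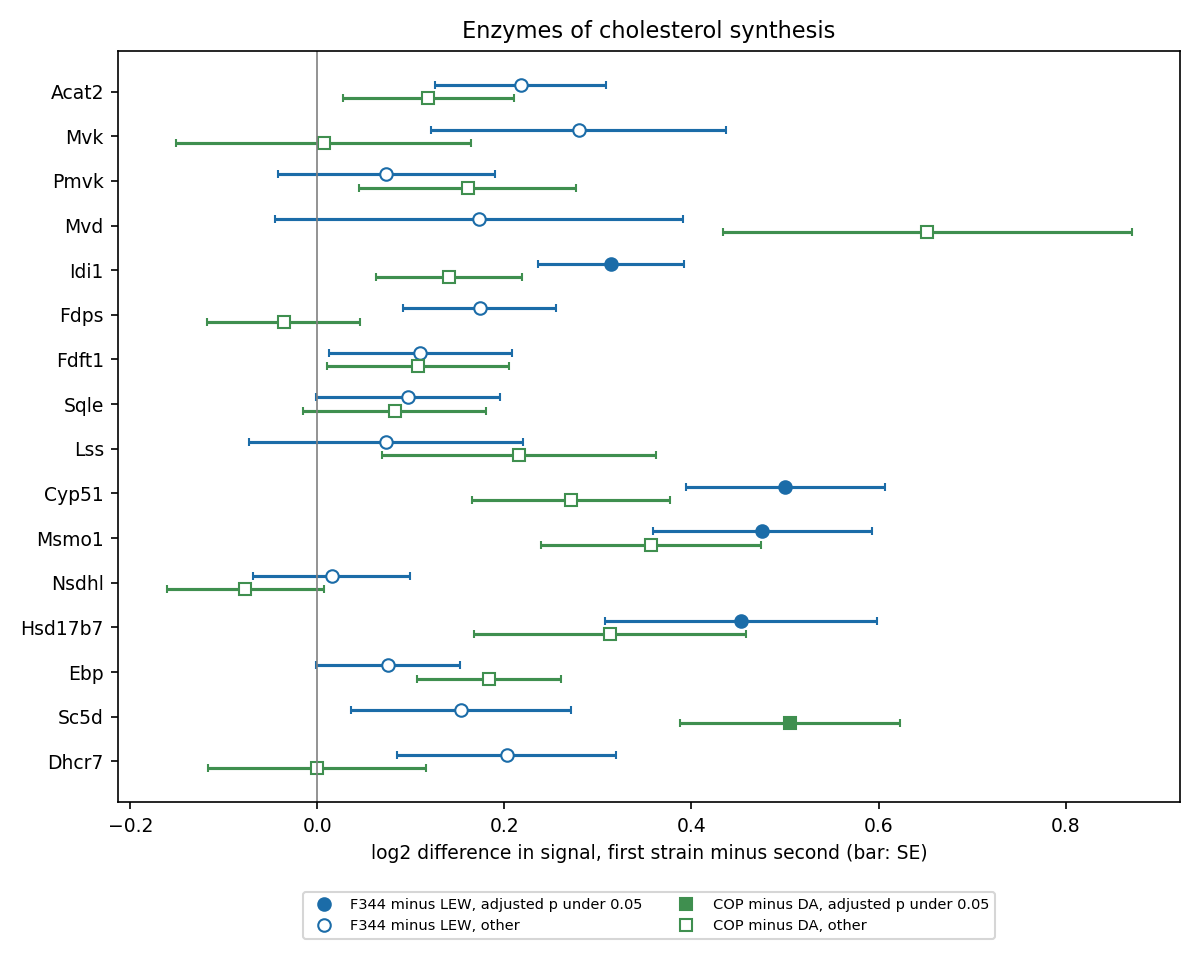
Log2 differences in signal with their SE for the 16 measured enzymes of cholesterol synthesis, F344 minus LEW (circles) and COP minus DA (squares), filled where the limma adjusted p was under 0.05. The 4 filled circles are Cyp51, Msmo1, Hsd17b7 and Idi1, and the filled square is Sc5d.

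Among partners and targets of the liver X receptors, 3 of 10 rose and 1 fell for F344 minus LEW (6.96% and 7.54% of all genes). The retinoid X receptor gene Rxrg (0.67), the fatty acid synthase gene Fasn (0.49) and the corepressor gene Nrip1 (0.33) were higher in F344, and the phospholipid acyltransferase gene Lpcat3 (-0.20) was lower. For COP minus DA 2 of 10 fell and 0 rose (6.42% and 5.74% of all genes). Scd, the fatty acid desaturase gene, averaged 1404 ± 622 on COP arrays against 5551 ± 614 on DA arrays (SD, n = 4). Its log2 difference was -2.08 (limma adjusted p = 2.30e-07), and that of Fasn was -0.70. Both are also genes of fat synthesis, and of 7 measured of 9 listed adipocyte markers 3 fell in COP against DA and 0 rose, beside the same shares of all genes. Those 7 summed to 21209.7 to 27994 on COP arrays and 28041 to 31399 on DA arrays, and their part in the Scd and Fasn differences was not tested.

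The counts of the remaining lists stand beside the same shares of all genes, and nothing is read from them about the lists. Of sterol uptake and SREBP control genes, 1 of 10 rose for F344 minus LEW, the lipoprotein receptor gene Vldlr (0.29, not called under median centring). For COP minus DA 2 of 10 fell and 2 rose. Vldlr (-0.44) and the scavenger receptor gene Cd36 (-0.46) fell, and the sterol carrier gene Stard4 (0.33) and the SREBP retention gene Insig2 (0.21) rose, neither of the rises being called under median centring. Of intracellular cholesterol genes, the sterol hydroxylase gene Cyp27a1 rose in F344 against LEW (0.43, not called under median centring), and the cholesterol esterifying enzyme gene Soat1 rose in COP against DA (0.44), 1 of 10 in each contrast. Of the 6 measured other export genes, 0 passed in either contrast in limma (1 fell in COP against DA under median centring and under quantile normalization). Of those, 1 had an unadjusted p under 0.05 for F344 minus LEW and 3 for COP minus DA.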

How the data were processed

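The deposited intensity values, 1 signal per probe set and array, were made by the authors with MAS5, per the submitters' processing notes; its version and settings are not given in the sources used here. In all, the table held 31099 probe sets on 16 arrays; 57 controls were left out. Of the 31042 others, 20826 had 1 gene symbol in the platform annotation, 436 several and 9780 none, and 18625 passed the filter. Signals under 1 (255 values) were set to 1 before log2, with no pseudocount.

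Strain means were estimated over all arrays with limma 3.58.1 (R 4.3.3), with an intensity trend, 12 residual degrees of freedom and Benjamini-Hochberg adjustment over all kept probe sets (two-sided, threshold 0.05). A gene outside the 7 was represented by its kept probe set of highest mean (10548 genes). Named genes were all member probe sets, up to 6 called genes per list with the largest difference, 3 genes per Abca1 probe set by pattern and the nearest measured neighbours; others serve as tissue or cell markers. The members and lists were chosen with earlier results of these data known. The fit was tested on simulated data. Alternatives tried were quantile normalization, median centring, a pseudocount of 19.3, no filter, a 60th percentile filter, no trend, a replicate block, only the 2 strains compared, averaging the probe sets of a gene, and leaving out each array. Figures were drawn with matplotlib 3.10.9.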

Additional observations from a re-analysis of the deposited data

Results flagged for a closer look

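Of 52 sets of 4 arrays (13 probe sets in 4 strains), 3 had a lone array, one whose gap to its nearest neighbour was more than 0.829 of the whole range. Chance gives about 1 in 20. For Abca1, COP replicate 1 read 3770.5 on 1382431_at, against 2929 to 2981 on the other COP arrays. For Abcg1, LEW replicate 1 read 1279 on 1368103_at, against 1383 to 1399. For Scarb1, F344 replicate 1 read 841 on 1386956_at, against 717 to 723.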

How the results depend on the processing

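The log2 differences of the 4 Abca1 probe sets moved by less than the spread between replicates under every alternative that gave a value (differences near 0 could change sign, as F344 minus DA for 1394490_at, from -0.07 to 0.37), and the calls for Apoe held under all of them. Leaving out single arrays, F344 minus LEW gave -2.38 to -2.23 for 1382431_at and 0.64 to 0.91 for 1383355_at. The filter at the 60th percentile leaves out 1384381_at by construction. Among the 9 tested probe sets, leaving out 1 array gave 2 to 3 calls over the 4 strains, 1 to 2 for F344 minus LEW, 0 to 1 for LEW minus COP (Abcg1 1387054_at without LEW replicate 1, limma adjusted p = 0.0282) and 0 to 1 for LEW minus DA. With the replicate block F344 minus LEW had 1 call in place of 2, that of Srebf2 being lost (limma adjusted p = 0.0556), and the block changed no other call of a tested probe set. Arrays of equal number did not deviate in the same direction (0 of 24 pairs with a correlation over 0.1, range -0.17 to 0.088), and the main fit had no replicate block. This check cannot show that arrays of equal number shared no handling. With 2 strains alone, F344 minus LEW had 1 call and LEW minus DA 0, Srebf2 being lost (limma adjusted p = 0.0669 and 0.0603). With no filter, F344 minus DA had 2 calls and F344 minus COP 3, each adding the dim Nr1h2 1389854_at (log2 differences 3.09 and 2.70, limma adjusted p = 0.0177 and 0.0332), and LEW minus DA had 2, adding the dim Srebf2 1377489_at. Of the 52 pathway genes, LEW minus DA had 5 calls, but 3 under quantile normalization, 3 under median centring and 3 with no filter, and COP minus DA had 8, but 5 when probe sets of a gene were averaged; the cause was not tested. Dim probe sets near a signal of 174 limit what can be said of Abcg1 1387054_at and Abca1 1384381_at.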
